A study of Mus musculus with 36 samples.

Results

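Across RNA-seq counts from mouse brain, 10 genes of the integrated stress response were followed: Atf4, Atf5, Ddit3, Trib3, Chac1, Asns, Sesn2, Ddit4, Gdf15 and Fgf21. They were chosen by name from the 56980 genes of the raw count table, and all 10 of 10 were found. The mice were Ndufs4 knockouts (KO) or wild type (WT). Ndufs4 encodes a subunit of mitochondrial complex I, the entry point of the respiratory chain. Mice aged 37 to 45 days were gavaged on 3 days with either vehicle or CP2, a small molecule that blocks complex I. The sample titles also carry a letter, F or M, whose meaning the labels do not state, so the 36 samples form 8 groups: KO CP2 F, KO CP2 M, KO vehicle F, WT CP2 F, WT CP2 M and WT vehicle F with 5 samples each, and KO vehicle M and WT vehicle M with 3 each. Each sample is named by the number in its title, such as L246. The labels name the tissue as brain, and the design text names hippocampus and cortex. How the knockout was made, and whether each library is a separate animal, are not given in the sources used here, so p-values measure the spread between these samples. The comparisons ask whether loss of Ndufs4, added inhibition of complex I, or both change these stress genes.

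The integrated stress response begins when one of several kinases, among them PERK (Eif2ak3), PKR (Eif2ak2), GCN2 (Eif2ak4) and HRI (Eif2ak1), phosphorylates the translation factor eIF2. Most protein synthesis then slows while translation of ATF4, a transcription factor, increases. ATF4 and its partners ATF5 and CHOP (Ddit3) switch on genes for amino acid supply, redox balance and feedback, and mitochondrial faults are a known trigger. Because ATF4 is controlled mainly at translation, its mRNA level is not a measure of its protein, which was not measured here.

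Library depth, as the sum of gene counts, ran from 46124548 to 88559920 with a median of 54749039. Ndufs4 itself, the check of the genotype labels, ranged from 27.4 to 39.1 counts-per-million (CPM) in the 18 KO samples and from 38.9 to 62.8 CPM in the 18 WT samples. It was lower in KO in both treatments (adjusted p = 3.75e-07 and 3.21e-06), but reads remained, and the deposited counts do not show which exons they cover. Summed CPM of 5 neuronal markers ranged from 3185 to 4656, and of 6 choroid plexus markers from 195.9 to 3467, so the libraries differed widely in the latter. In bulk tissue, fewer cells of a type and less RNA per cell cannot be told apart. Library L246 (KO vehicle F) stood apart in its immediate early genes, and member results that rest on it are given with and without it.

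A response element shared by many ATF4 targets, TGATGNAA, was searched on both strands in the 250 bases before the start of each member, to show which members carry these letters close to the start. RefSeq promoter sequences (GRCm38.p6) matched all 10 members, and 3 of 10 held the motif: Chac1, Asns and Fgf21. Of all 27025 genes in that table, 3.91% held it. The windows are printed 5′ to 3′ on the gene's strand with the match in capitals. They lie at chr2:119351023-119351082 (plus strand) for Chac1, at chr6:7693210-7693258 (minus strand) for Asns and at chr7:45615596-45615655 (minus strand) for Fgf21, all upstream of the first exon.
Chac1: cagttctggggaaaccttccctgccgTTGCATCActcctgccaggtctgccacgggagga
Asns: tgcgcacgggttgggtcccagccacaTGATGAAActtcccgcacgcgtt
Fgf21: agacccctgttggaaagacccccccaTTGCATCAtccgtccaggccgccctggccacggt
The match reads on the minus strand relative to the gene in Chac1, 193 to 186 bases before the start, and in Fgf21, 139 to 132 bases before it. In Asns it reads forward, 23 to 16 bases before the start. A match is a description of these letters, and a window without one says nothing of ATF4 binding. The files were counted on GRCm39, so these coordinates belong to the sequence table and not to the counts.

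The members differed widely in level. Per kilobase of exon, Atf4 had the highest median (40.6 CPM per kb), followed by Asns (28.4), Ddit4 (27.0), Atf5 (13.9), Ddit3 (11.1), Sesn2 (4.79) and Chac1 (3.48). Trib3 was low at 0.251 CPM per kb, Gdf15 lay at 0.041, and the median of Fgf21 was 0. Across the 8 groups the ratio of the highest to the lowest group mean was 1.12 for Asns, 1.22 for Sesn2, 1.34 for Atf5, 1.35 for Ddit3, 1.37 for Ddit4, 1.46 for Atf4, 1.56 for Chac1 and 2.39 for Trib3. When the 8 groups were put in order of mean, neighbours lay closer than the larger of their SDs in all 7 pairs for each of these genes except Ddit3, where 1 of 7 pairs was farther apart. Ordering puts similar means side by side, and for Ndufs4 itself only 3 of 7 pairs were farther apart. The order is thus a description and does not compare genotypes or treatments.

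**Figure D1:**
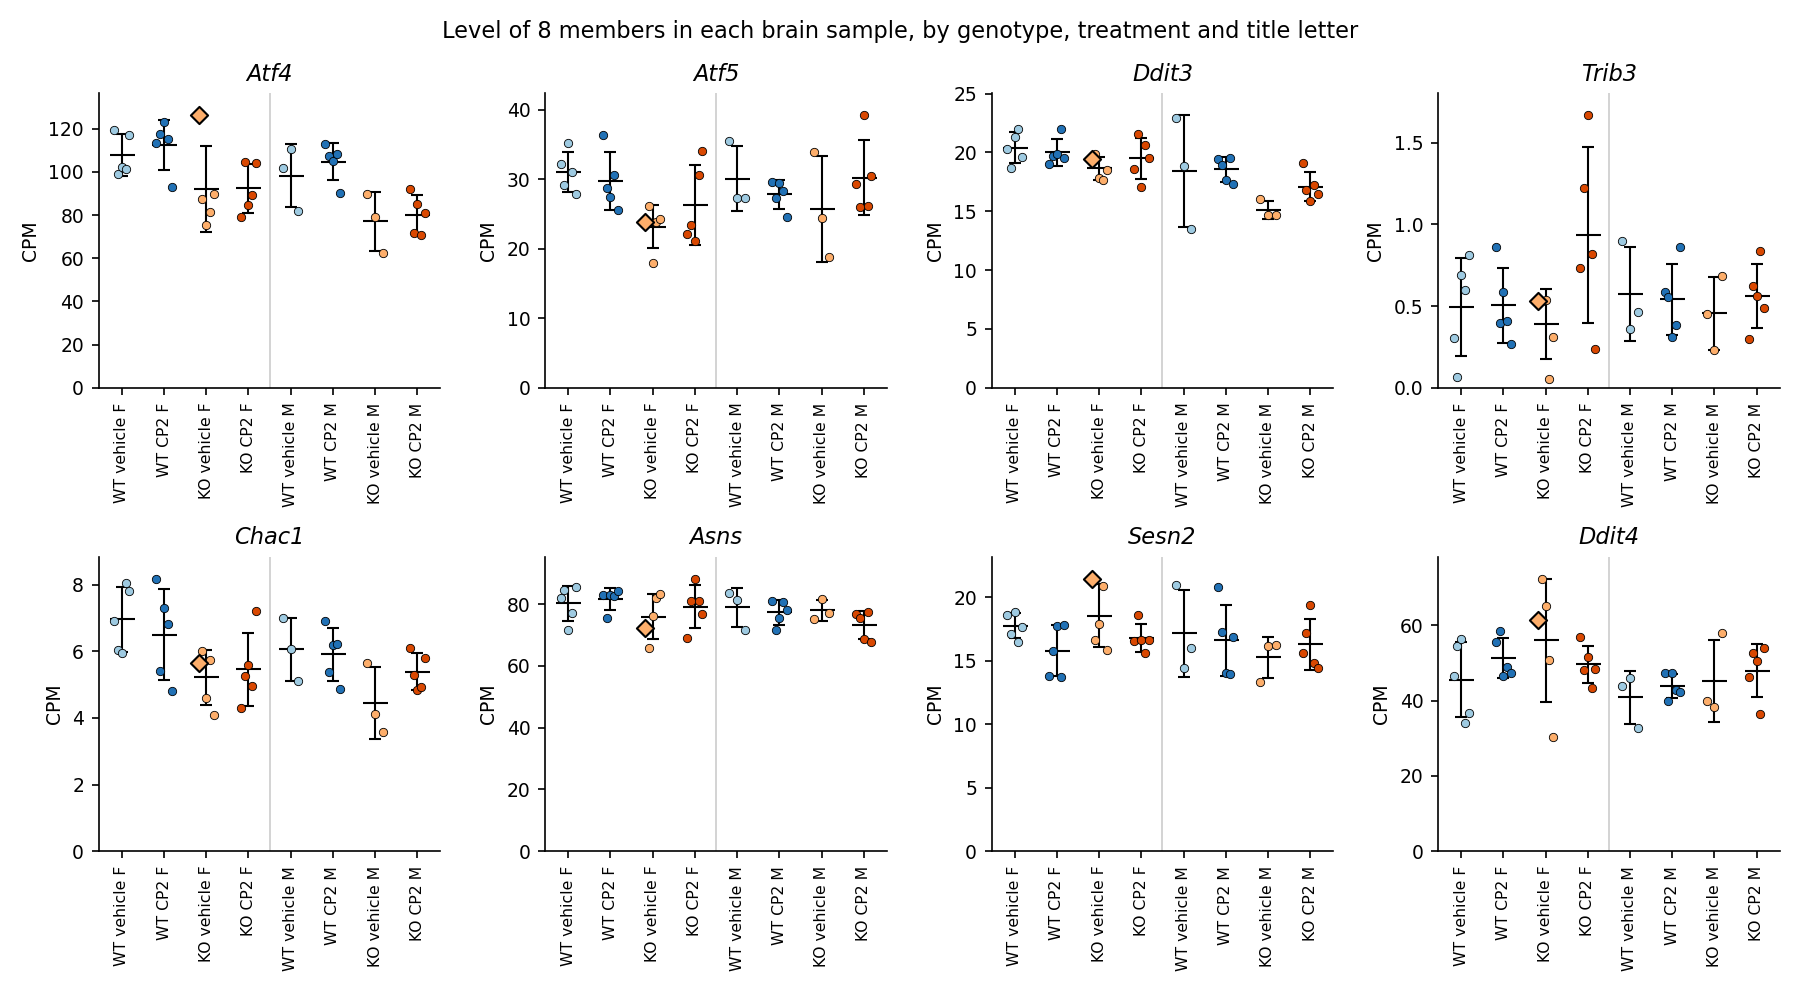
Level of 8 members (CPM on TMM library sizes, linear axes from 0) in each of 36 samples, by group. Points are samples, horizontal bars are group means, whiskers are SD, and the diamond marks L246. Group means of Atf4 are lower in KO than in WT for each treatment and letter, with single samples overlapping, and L246 is highest at 126.2 CPM, while Asns stays between 65.9 and 88.2 CPM.

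Atf4 (ENSMUSG00000042406), the central transcription factor of the response, was lower in KO than in WT brains under CP2. With CP2 and letter M, Atf4 was 90.2, 105.0, 107.3, 108.5 and 112.9 CPM in WT and 70.8, 71.6, 81.1, 85.1 and 92.1 CPM in KO. The groups touched only where the highest KO sample (L266) passed the lowest WT sample (L289). With CP2 and letter F it was 92.8, 113.6, 115.0, 117.5 and 122.9 CPM in WT against 79.3, 84.8, 89.3, 104.1 and 104.4 CPM in KO, where again 1 WT sample (L311) lay within the KO range. Averaged over both letters, Atf4 was 20.7% lower in KO under CP2 (log2 fold change -0.34, SE 0.08, edgeR adjusted p = 0.00493). The difference within M was 23.5% (log2 -0.39, SE 0.11, adjusted p = 0.0255), and within F it was 17.8% (adjusted p = 0.197). Across all 25601 genes tested, 11.6% were called in the averaged CP2 comparison (6.07% lower), 9.99% in M (5.24% lower) and 2.0% in F. The call within M was lost without KO sample L291 or L298, or without WT sample L259 or L262 (adjusted p 0.0586 to 0.0702), while the averaged call held whichever library was left out.

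In vehicle-treated mice the same comparison missed the threshold. Some alternatives moved it across, and others gave a smaller difference in F. Atf4 was 98.8, 101.2, 102.1, 117.3 and 119.3 CPM in WT vehicle F. In KO vehicle F it was 75.5, 81.5, 87.2 and 89.9 CPM in 4 samples and 126.2 CPM in L246, the highest value of all 36 samples. The other 4 KO samples lay below every WT sample of that letter, and L246 lay above them all. In vehicle M, Atf4 was 82.1, 101.7 and 110.8 CPM in WT and 62.6, 79.0 and 89.6 CPM in KO. With all samples, Atf4 was 18.1% lower in KO vehicle on average (log2 -0.29, SE 0.09, adjusted p = 0.0545), which missed the threshold, and 14.5% lower in F (adjusted p = 0.256). Without L246 the log2 difference was -0.36 on average (adjusted p = 0.00552) and -0.36 in F (adjusted p = 0.0429), both called. The averaged difference was also called without KO sample L310 (adjusted p = 0.0282) or WT sample L303 (adjusted p = 0.0286), both of letter M. With all samples it was called with DESeq2 (adjusted p = 0.0371), with the gene ENSMUSG00000119584 left out of the table before library sizes were taken (adjusted p = 0.0499) and with the summed immediate early gene level as a covariate (adjusted p = 0.026). Over 8 alternatives the F difference ran from -0.301 to -0.084 on the log2 scale (adjusted p 0.0249 to 0.86). With each library left out, the F difference ran from -0.357 to -0.153 (adjusted p 0.0429 to 0.546).

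L246 was also unlike the rest in genes that neurons switch on within minutes of strong activity. Fos, the best known of them, was at 643.8 CPM in L246 and between 4.53 and 73.2 CPM in the other 35 samples. Npas4, an activity-dependent transcription factor of neurons, was at 418.7 CPM against 2.21 to 24.2 CPM elsewhere. All 10 of 10 immediate early genes on the list were highest of all 36 samples in L246, and their summed CPM was 4234, or 8.76 times the median of the others. Atf3, a stress-induced transcription factor of the same family, stood at 28.9 CPM against at most 2.25 CPM elsewhere, and Ppp1r15a (GADD34), which reverses eIF2 phosphorylation, at 48.7 CPM against at most 18.4 CPM. Cebpb, Cebpg and Ppp1r15b were highest there too, as was Sesn2 among the members (21.5 CPM against at most 21.0 CPM). In all, L246 was highest for 5 of 18 kinases, eIF2 factors and regulators. On that list Eif2ak1 and Eif2s1 ranked 34th in L246, and Dele1 and Oma1 31st. Of ATF4 targets outside the members, L246 was highest for 0 of 20 in amino acid transport and synthesis. Among 13 further targets it was highest for 1, Sqstm1. Among the other members Ddit4 (61.4 CPM) ranked 3rd from the highest of 36, at 1.3 times the median of the others, and Gdf15 (0.196 CPM) ranked 9th, at 2.78 times. Chac1 (5.65 CPM), Trib3 (0.529 CPM) and Ddit3 (19.5 CPM) ranked 19th, 19th and 16th, Asns (72.3 CPM) ranked 29th and Atf5 (23.8 CPM) 30th.

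Atf4 followed the immediate early genes in the other samples as well. After each sample was centred on its group mean, log2 Atf4 and the log2 summed level of the 10 immediate early genes correlated with Pearson's r = 0.72 (n = 36, permutation p = 5e-05 within groups, adjusted p = 0.0018) and Spearman's rho = 0.72 (permutation p = 2e-05, adjusted p = 0.00072). Leaving out the samples farthest from the median, L246 and L279, gave r = 0.684. Adjustment was over all 36 pairs computed among 7 members, this sum and the share of reads outside genes. No other member passed for this sum, with r between 0.011 (Ddit4) and 0.193 (Sesn2). Under CP2, 3 of these 10 genes (Arc, Egr1 and Egr2) were called lower in KO and 0 higher, where 6.07% of all genes were called lower. Under vehicle 0 of the 10 were called, where 6.67% of all genes were, with L246 among the KO samples. Calls of these 10 genes without L246 were not taken. The summed level ran from 221.1 to 347.0 CPM in KO vehicle M against 483.5 to 653.8 CPM in WT vehicle M. In KO vehicle F it ran from 244.8 to 4234 CPM (median 504.6, highest in L246) against 392.8 to 904.0 CPM in WT vehicle F (median 455.6). The summed level under CP2 had a median of 332.8 CPM in KO CP2 M (highest sample 418.9) against 729.9 CPM in WT CP2 M (lowest sample 465.1), and 462.1 CPM in KO CP2 F (highest 702.8) against 820.3 CPM in WT CP2 F (lowest 494.2). With this sum as a covariate, an alternative chosen after seeing the data, the KO difference of Atf4 under CP2 was -0.16 on the log2 scale and no longer called (adjusted p = 0.155). Under vehicle it was then -0.24 and called (adjusted p = 0.026).

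**Figure D2:**
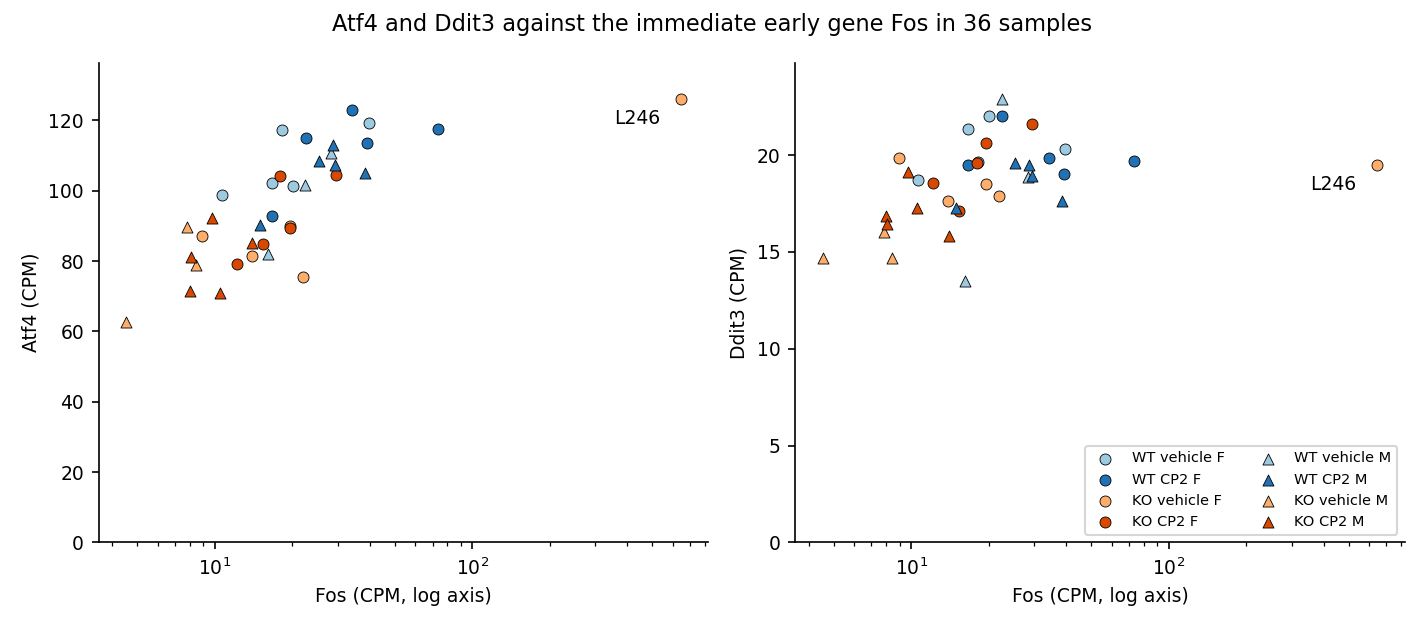
Atf4 (left) and Ddit3 (right) in CPM against Fos in CPM on a log axis, 1 point per sample, with colour for genotype and treatment, circles for letter F and triangles for letter M. Atf4 rises with Fos across samples and is highest in L246 (Fos 643.8 CPM, Atf4 126.2 CPM), where Ddit3 (19.5 CPM) is near the middle of its range.

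Atf5 (ENSMUSG00000038539), a relative of ATF4 linked to the mitochondrial unfolded protein response, was lower in KO vehicle samples without passing the threshold. In vehicle F it was 27.9, 29.1, 31.0, 32.2 and 35.2 CPM in WT and 17.9, 23.8, 23.8, 24.2 and 26.2 CPM in KO. The difference was 25.4% (log2 -0.42, SE 0.14, adjusted p = 0.065) in F and 20.1% averaged over letters (adjusted p = 0.0738). The averaged difference was called without KO sample L310 (log2 -0.45, adjusted p = 0.0112). The F difference was called with DESeq2 (adjusted p = 0.0497) and with only the compared groups in the fit (adjusted p = 0.0463). Over 8 alternatives it ran from -0.435 to -0.29 on the log2 scale, with adjusted p up to 0.477. With each library left out it was not called (adjusted p 0.0655 to 0.208). Under CP2 the averaged KO difference was 1.9% (adjusted p = 0.906). The genotype by CP2 interaction was 0.30 on the log2 scale (interval of 1.96 SE 0.005 to 0.587). Its edgeR p was 0.0539 unadjusted and 0.354 adjusted, so a difference between the treatments was not shown.

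Ddit3 (ENSMUSG00000025408), which encodes CHOP, was the only member called for the title letter. In F samples it was 13.8% higher than in M samples, averaged over genotype and treatment (log2 0.19, SE 0.05, adjusted p = 0.0122), where 10.3% of all genes were called and 4.61% were called higher in F. Its mean in WT vehicle was 20.4 ± 1.32 CPM (SD, n = 5) for F and 18.4 ± 4.73 CPM (n = 3) for M. In KO vehicle it was 18.7 ± 0.975 CPM (n = 5) for F and 15.1 ± 0.795 CPM (n = 3) for M. Reads outside annotated genes took a larger share in M in 3 of the 4 pairs of groups, for example 5.99% ± 0.74 (SD, n = 5) in WT vehicle F and 10.2% ± 1.22 (n = 3) in WT vehicle M. With that share as a covariate the Ddit3 difference was 0.13 on the log2 scale and not called (adjusted p = 0.481). Atf4 was 12.8% higher in F (adjusted p = 0.0652) and was called when any 1 of L201, L266, L281, L282, L300, L310 or L311 was left out (adjusted p 0.0324 to 0.0469). KO against WT, Ddit3 was 13.4% lower under vehicle (adjusted p = 0.0886) and 5.3% lower under CP2 (adjusted p = 0.505). In vehicle M the 3 WT samples were 13.5, 18.9 and 22.9 CPM and the 3 KO samples 14.7, 14.7 and 16.04 CPM. Without L303, the lowest WT sample, Ddit3 was called lower in KO, by 0.47 on the log2 scale in M (adjusted p = 0.0435) and 0.30 on average (adjusted p = 0.00788). A second Ensembl entry also named Ddit3 shares 6.1% of these exon bases on the same strand and is listed at 0 in every sample, so reads in the shared stretch may have gone uncounted.

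Chac1 (ENSMUSG00000027313), a glutathione-degrading enzyme and one of the most responsive ATF4 targets, was lower in KO under vehicle. In vehicle F it was 5.95, 6.05, 6.92, 7.81 and 8.04 CPM in WT and 4.08, 4.60, 5.65, 5.75 and 5.999 CPM in KO. In vehicle M it was 5.09, 6.08 and 6.997 CPM in WT and 3.59, 4.10 and 5.64 CPM in KO. All 8 KO samples lay below the mean of their WT group, although the ranges overlapped in both letters. Averaged over letters, Chac1 was 25.8% lower (log2 -0.43, SE 0.13, adjusted p = 0.037), in a comparison where 6.67% of all genes were called and 3.8% were called lower. The call was near the threshold: it held in 7 of 16 fits that each left out 1 library. It was lost without KO samples L281, L283, L319 or L322, or without WT samples L252, L295, L296, L285 or L300 (adjusted p 0.0538 to 0.154). KO vehicle also had the higher share of reads outside genes in both letters (9.24% against 5.99% in F, 12.1% against 10.2% in M), and with that share as a covariate the Chac1 difference was -0.27 (adjusted p = 0.441) and no longer called. With only the compared groups in the fit the adjusted p was 0.0607. Under CP2 the difference was 12.4% and not called (adjusted p = 0.301).

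Asns (ENSMUSG00000029752), asparagine synthetase, was the steadiest member. Its 36 values lay between 65.9 and 88.2 CPM, 1.34-fold apart. KO against WT, the averaged log2 difference was -0.05 under vehicle (interval of 1.96 SE -0.156 to 0.06) and -0.06 under CP2 (-0.156 to 0.032). CP2 against vehicle, it was -0.02 in KO (-0.117 to 0.085) and -0.002 in WT (-0.103 to 0.099). Within groups Asns fell as the share of reads outside genes rose (r = -0.625, permutation p = 0.00134, adjusted p = 0.0161; rho = -0.587, adjusted p = 0.0233; r = -0.517 without the 2 farthest samples). With Atf4 it gave r = 0.029 (permutation p = 0.892, adjusted p = 0.973) and rho = 0.052 (adjusted p = 0.945).

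Trib3 (ENSMUSG00000032715), a pseudokinase that feeds back on ATF4 and CHOP, was low, at 3 to 90 reads per sample. Its 2 highest values came from KO CP2 F, where the samples were 0.237, 0.734, 0.816, 1.22 and 1.67 CPM, against 0.051, 0.311, 0.529, 0.529 and 0.538 CPM in KO vehicle F. In that comparison 4 of the 5 CP2 samples lay above the vehicle mean, and the fifth, L234, did not. The difference was 2.38-fold (log2 1.25, SE 0.52) and was not called (adjusted p = 0.342). In M it was smaller, with 0.296 to 0.840 CPM in KO CP2 and 0.233 to 0.682 CPM in KO vehicle. The difference between the letters was 0.96 on the log2 scale (SE 0.79, adjusted p = 0.619).

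Sesn2 (ENSMUSG00000028893), which restrains mTORC1, and Ddit4 (ENSMUSG00000020108), another mTORC1 inhibitor that also responds to glucocorticoids, were not called in any comparison. Sesn2 ranged from 13.4 to 21.5 CPM. Ddit4 had its widest spread in KO vehicle F, where the samples were 30.5, 50.9, 61.4, 65.3 and 72.4 CPM against 34.1, 36.8, 46.5, 54.5 and 56.3 CPM in WT vehicle F. The KO difference there was 22.9% upward (log2 0.30, SE 0.17, adjusted p = 0.322). Without L283, the lowest KO sample, it was 0.46 and called (adjusted p = 0.0396), and without L283 Ddit4 was also called higher in F than in M (log2 0.23, adjusted p = 0.0392). Ddit4 was most like Sgk1, a glucocorticoid-induced kinase, across the 36 centred samples (r = 0.717). In KO vehicle F the 3 samples with the most Ddit4 (L279, L281 and L246) also had the most Sgk1 (187.9, 165.1 and 141.4 CPM against 66.8 and 53.9 CPM). The same 3 had the largest share of reads outside genes in that group (11.4%, 11.7% and 10.1% against 6.86% and 6.19%). Within groups Ddit4 gave r = 0.435 with that share (permutation p = 0.0276, adjusted p = 0.124). The cause of the Ddit4 spread was not tested.

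Gdf15 and Fgf21 encode hormones that muscle and liver release under mitochondrial stress. In these brains both were at the limit of detection. Gdf15 (ENSMUSG00000038508) gave 231 reads in all, between 0 and 28 per sample. KO samples given CP2 held 0, 0, 0, 1 and 3 reads in F and 0, 0, 2, 8 and 12 in M. WT samples given CP2 held 0, 5, 6, 7 and 16 in F and 3, 11, 12, 14 and 20 in M. Pooled, that was 26 reads or 0.042 CPM (95% Poisson interval 0.028 to 0.062) in KO and 94 reads or 0.170 CPM (0.138 to 0.208) in WT. The vehicle pools were 37 reads or 0.0889 CPM (0.0626 to 0.123) in KO and 74 reads or 0.171 CPM (0.134 to 0.215) in WT. The KO and WT intervals did not overlap under either treatment, and they cover counting error only. The averaged fit called Gdf15 lower in KO under CP2 (log2 -2.40, SE 0.78, adjusted p = 0.0363), while under vehicle it was not called (log2 -1.43, SE 0.92, adjusted p = 0.384). The CP2 call held in 10 of 20 fits that each left out 1 library. It was lost (adjusted p 0.0507 to 0.0826) without KO samples L201, L216, L227, L234, L291, L298 or L299, or without WT samples L257, L259 or L263.

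Fgf21 (ENSMUSG00000030827) was too low for the filter and entered no main test. It gave 69 reads in 11 of 36 samples. Of these, 66 reads came from 8 of the 20 samples given CP2 and 3 reads from 3 of the 16 given vehicle. KO CP2 F held 0, 0, 3, 10 and 28 reads (the last in L234) and WT CP2 F 0, 0, 1, 6 and 10. In M, 1 KO CP2 sample (L298) and 1 WT CP2 sample (L262) held 4 reads each and the other 8 held 0. No vehicle sample held more than 1 read. A count of 0 allows up to 3 reads, or 0.034 to 0.065 CPM at these depths. With no filter on low counts, CP2 against vehicle gave unadjusted p = 0.0499 in KO and 0.027 in WT, with adjusted p = 0.337 and 0.975 over 42414 genes, so no difference was called. Of 5 hepatocyte markers, Alb, Fgb and Serpina1a had medians under 0.1 CPM over all 36 samples, and Apoa1 and Apoa2 did not. Summed CPM of the 5 had a median of 0.892 and reached 12.3 in a KO vehicle F sample.

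**Figure D3:**
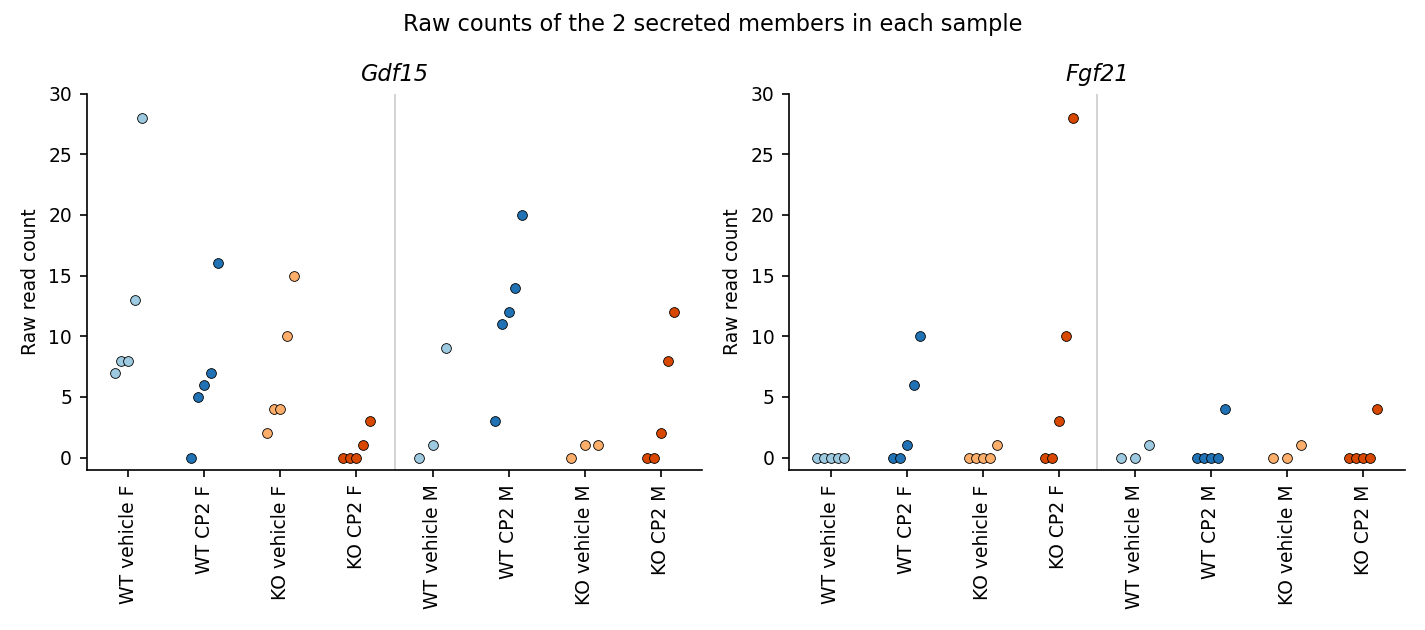
Raw read counts of Gdf15 (left) and Fgf21 (right) in each of 36 samples, by group, on linear axes. Gdf15 reaches 28 reads in WT vehicle F and at most 3 in KO CP2 F, and Fgf21 counts above 1 occur only in groups given CP2, with 28 reads in L234.

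CP2 called no member in either genotype. In KO mice the averaged CP2 comparison called 3.91% of all genes, with 0.0859% in F, 5.1% in M and 0.691% for the difference between the letters. None of the 9 members tested was among them, and the smallest adjusted p of the 7 more abundant members was 0.292 (Atf5, log2 0.21). Over those 7 members the 1.96 SE intervals ran from -0.296 to 0.415 on the log2 scale, or 0.814-fold to 1.33-fold, and 0 of the 7 had an unadjusted p under 0.05. In WT mice the edgeR fit over all samples called 0 genes, 0.0% in F, in M, on average and for their difference, although 1031 genes had an unadjusted p under 0.05 in the averaged comparison. In M, 1 gene, no member, was called by DESeq2 and 1 by edgeR with only the compared groups in the fit, which called no member either. The other alternatives called 0 in these WT comparisons. There the averaged intervals of the 7 members ran from -0.303 (Chac1) to 0.389 (Ddit4), or 0.811-fold to 1.31-fold. The genotype by CP2 interaction called 0.715% of all genes on average, 1.98% in M and 0.0% in F, and 0 of 9 members. In these 20 comparisons, which share samples, members were called 5 times. Chac1 was called for KO under vehicle on average, where 6.67% of all genes were called. For KO under CP2, Atf4 was called in M (9.99% of all genes) and in the average that includes M (11.6%). Gdf15 was called in that same average, and Ddit3 between letters (10.3%). Whether members were called more often than all genes was not tested. Without averaging, KO against WT under vehicle called 4.96% of all genes in F and 0.516% in M and 0 members. The difference of that effect between letters called 0.102% under vehicle and 0.82% under CP2, and again 0 members. The median log2 difference of the 9 members tested was -0.289 for KO under vehicle (all genes 0.022), -0.062 for KO under CP2 (0.012), 0.031 for CP2 in KO (0.0) and -0.008 for CP2 in WT (0.006).

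**Figure D4:**
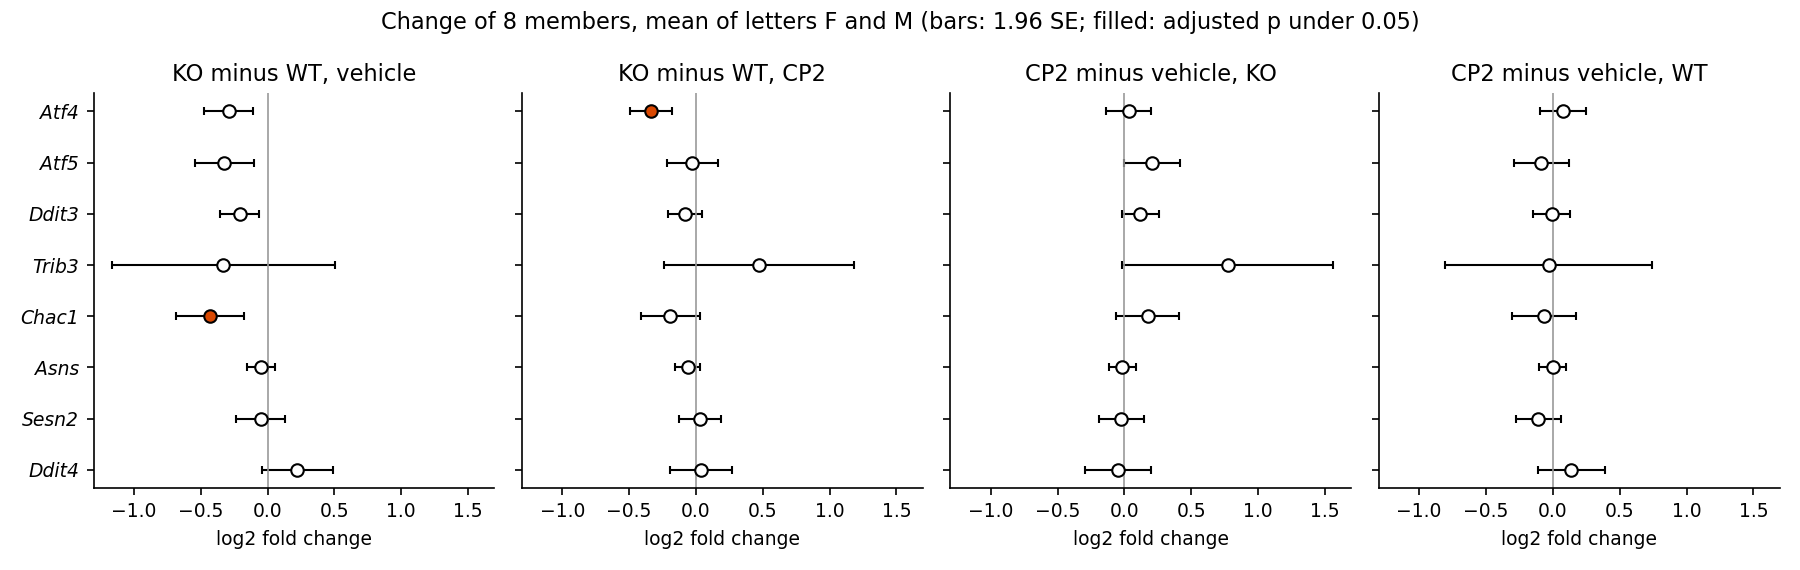
Log2 fold changes of 8 members in 4 comparisons averaged over the letters F and M, with whiskers of 1.96 SE. Filled points have an adjusted p under 0.05 over 25601 genes, Chac1 for KO against WT under vehicle (-0.43) and Atf4 under CP2 (-0.34), and all points of the comparisons of CP2 against vehicle are open.

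Other genes of the pathway were called in both directions, in comparisons with these shares of all genes called: 6.67% under vehicle (2.87% higher, 3.8% lower) and 11.6% under CP2 (5.54% higher, 6.07% lower) for KO against WT, and 3.91% for CP2 in KO (2.08% higher, 1.84% lower). Of 18 kinases, eIF2 factors and regulators, 2 were higher and 0 lower in KO under vehicle: the double-stranded RNA sensor kinase Eif2ak2 (log2 0.35, adjusted p = 0.0439) and Eif2ak3, which encodes PERK (log2 0.23, adjusted p = 0.0176). Under CP2, Eif2ak2 (log2 0.47, adjusted p = 0.000822) and Eif2b3, a subunit of the eIF2 exchange factor (log2 0.28, adjusted p = 0.00717), were higher in KO and 0 were lower. Of 20 ATF4 targets of amino acid transport and synthesis, 0 were higher and 2 lower in KO under vehicle: Mthfd2, the mitochondrial folate enzyme often induced by respiratory defects (log2 -0.66, adjusted p = 0.00462), and the glycine transporter Slc6a9 (log2 -0.45, adjusted p = 0.00344). Under CP2, 3 of these 20 were lower in KO, Mthfd2 (log2 -0.41), Aldh18a1 (-0.28) and Gpt2 (-0.20), and 1 was higher, the serine synthesis enzyme Psph (0.20). Of 15 further targets listed, 13 were matched by name. Mars1, which is counted under the name Mars, and Ero1a were not matched and were left out. Of the 13, Wars was lower in KO under vehicle (-0.18), with 0 higher. Stc2, Jdp2 and Cars were lower under CP2 (-0.41, -0.39 and -0.16), again with 0 higher. CP2 in KO lowered 1 of 18 regulators, the amino acid sensor kinase Eif2ak4 (log2 -0.22, adjusted p = 0.0495), and changed 0 of 20 and 0 of 13 targets. In the same comparison 3 of 5 oligodendrocyte and 3 of 5 microglial markers were called higher, against 2.08% of all genes. Under vehicle 4 of 5 red cell genes were called lower in KO, against 3.8% of all genes. The number of all genes called for CP2 in KO on average (1002) ranged from 0.0 to 1.55 times that under the alternatives. Whether these marker differences reflect tissue makeup, and their part in the member values, was not tested.

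Among the 7 abundant members, 21 pairs were compared within groups. Atf4 and Chac1 varied together (r = 0.58, permutation p = 0.00127, adjusted p = 0.0161; rho = 0.574, adjusted p = 0.0233; r = 0.583 without the 2 farthest samples). Atf5 and Chac1 gave r = 0.531 (adjusted p = 0.0524) and rho = 0.535 (adjusted p = 0.034), and r = 0.397 without the 2 farthest samples. Atf4 gave r = 0.514 with Atf5 and 0.465 with Ddit3, both with adjusted p = 0.0592. As a description over 36 samples and 15420 genes, the genes most like each member in the same libraries were Gpr3 (r = 0.816) and Gadd45b (0.783) for Atf4, Slc25a39 (0.81) and Kcne1l (0.807) for Atf5, 1500002C15Rik (0.74) and Rbm8a (0.701) for Ddit3, and Tango2 (0.846) and Pfdn1 (0.83) for Chac1. For Asns they were Kifap3 (0.767) and Atp6v1c1 (0.764), for Sesn2 Rwdd2a (0.651) and Tox2 (0.619), and for Ddit4 Sgk1 (0.717) and Gm17092 (0.71).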

How the data were processed

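PolyA RNA from 36 brain samples was sequenced from Illumina TruSeq libraries, per the labels. The authors deposited 1 table of raw read counts per Ensembl gene. STAR, HTSeq and the build GRCm39 are named in the submitters' processing notes, without versions, and the annotation release and strandedness are not given in the sources used here. Without strand, reads where Atf5 overlaps Nup62 and Il4i1 (4.1% of exon bases) or Ddit3 overlaps Mars (4.0%) cannot be assigned. The 5 summary lines of the table (11.96% to 19.62% of reads) were left out. Groups came from genotype, treatment and the title letter. No replicate numbers are shared, and none were paired.

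Counts were fitted here with edgeR 4.0.16 (R 4.3.3, TMM, filterByExpr, robust glmQLFit and glmQLFTest) over all 36 samples, 1 coefficient per group. P-values were adjusted by Benjamini-Hochberg over 25601 genes in each comparison, and a gene with an adjusted p under 0.05 was called. The script was tested on simulated data. CPM use TMM library sizes, and log2 CPM a prior count of 2. Exon lengths and symbols came from GENCODE M21, which named 91.39% of identifiers. Permutations (100000) shuffled samples within groups. Alternatives were DESeq2 1.42.0, its size factors, no filter, covariates, fewer samples or groups, and each library left out. The members and lists were chosen with earlier results of these data known. All members were named, with Ndufs4, up to 4 called genes per list and comparison with a mean of at least 1 CPM, and the 2 genes most like each member. Genes named beside L246, and Sgk1 levels in KO vehicle F, were chosen after their values were seen.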

Additional observations from a re-analysis of the deposited data

Results flagged for a closer look

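Of 59 combinations of a member and a group of 5 samples that could be checked, 8 had 1 sample lying far from the other 4. In 3 of these, all Fgf21, the other 4 samples held 0 reads, so any read at all sets the sample apart. Of the remaining 56 combinations 5 had such a sample, where chance alone flags about 1 in 20 groups. Atf4 in KO vehicle F was highest in L246 at 126.2 CPM, with the other 4 samples between 75.5 and 89.9 CPM. Atf5 in KO vehicle F was lowest in L281 at 17.93 CPM, against 23.8 to 26.2 CPM. Ddit3 in WT CP2 F was highest in L272 at 22.01 CPM. Asns in WT CP2 F was lowest in L240 at 75.46 CPM. The other 4 rest on at most 4 reads each: Gdf15 in KO CP2 F was highest in L233 (0.06441 CPM, 3 reads), and Fgf21 was highest in L298 for KO CP2 M (0.073 CPM, 4 reads), in L281 for KO vehicle F (0.01992 CPM, 1 read) and in L262 for WT CP2 M (0.05069 CPM, 4 reads). No explanation of these samples was tested.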

How the results depend on the processing

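No call of a member changed direction under any alternative. For KO against WT under vehicle, the number of members called in F (0) became 1 with DESeq2, with only the compared groups, and with the immediate early gene covariate added after seeing the data, and was 0 to 1 when each library was left out. In M it was 0 to 1 with a library left out. Averaged (1), it became 0 with a covariate for reads outside genes or with only the compared groups, 2 with DESeq2 or without ENSMUSG00000119584, and 0 to 3 with a library left out. With the immediate early gene covariate it stayed at 1, but the gene called was Atf4 and no longer Chac1 (adjusted p = 0.0515). Under CP2, M (1) became 0 without the filter, without L266 and L291, and with the immediate early gene covariate, and was 0 to 1 with a library left out. Averaged (2), it became 1 without the filter, without L266 and L291 and with DESeq2, which gave Gdf15 no adjusted p, and 0 with the immediate early gene covariate. Leaving out a library gave 1 to 2. F against M (1) became 0 with the covariate for reads outside genes and was 1 to 2 with a library left out. The 8 samples far from their group became 5 with plain totals: Atf4 in L246, Atf5 in L281, Ddit3 in L272 and Asns in L240 no longer stood apart, Ddit3 in L266 did, and the other 4 rest on at most 4 reads. With DESeq2 size factors, Atf4 in L289 replaced Atf5 in L281. Over all genes, the number called for KO under vehicle on average (1708) ranged from 0.17 times that, with the covariate for reads outside genes, to 1.36 times (2319, with DESeq2), and was 729 to 2169 with a library left out. It ranged from 1911 to 3675 under CP2 (2972), 0 to 1555 for CP2 in KO (1002), 0 to 549 for the interaction (183) and 140 to 3115 for F against M (2630). The cause of these changes was not tested. No paired analysis was possible because no replicate number is shared between groups. Comparisons over all 8 groups have no smaller fit. Depth limits Gdf15, Fgf21 and Trib3.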
